A study of Heterocephalus glaber and Mus musculus with 9 samples.

Results

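The genes described here are 8 genes of iron recycling and hepcidin signalling: *Hmox1*, *Bach1*, *Hpx*, *Slc40a1*, *Slc11a1*, *Aco1*, *Bmp6* and *Furin*. They were chosen by name, with earlier results of these data known. All 8 were found among the 12946 genes of the table. RNA was sequenced from the whole spleen of 9 untreated, healthy animals, 1 library per animal, in 3 groups of 3. The mice were C57Bl/6N males of 2 months. The naked mole-rats (NM-R, *Heterocephalus glaber*) were non-breeding colony animals, split by the study into small-spleen (ssNM-R) and large-spleen (lsNM-R) cohorts according to spleen mass relative to body mass. The ssNM-Rs were animals 2, 3 and 6, all male and aged 30, 26 and 23 months. The lsNM-Rs were animals 1 and 5, males of 24 and 23 months, and animal 4, a female of 29 months. The NM-Rs lived in warm, humid tunnel cages and the mice in a pathogen-free facility. Species, age, strain, housing, genome and gene models therefore changed together, and a difference between NM-R and mouse cannot be told apart from any of them.

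Mammals take most of the iron they need from their own worn-out red cells. Red pulp macrophages of the spleen engulf these cells, haem oxygenase 1 (*Hmox1*) opens the haem ring to release iron, and ferroportin (*Slc40a1*), the iron exporter of the cell membrane, returns the iron to plasma. BACH1 represses *Hmox1* and related genes until haem binds it, iron regulatory protein 1 (*Aco1*) binds stem-loops in messenger RNAs when iron is scarce, and hepcidin, a liver hormone whose transcription is raised by BMP6, removes ferroportin from the membrane.

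Mouse sequences are shown for *Slc40a1* and *Hmox1*. A pattern of the element bound by the *Aco1* product and 1 form of the element bound by BACH1 were searched for. Each of these was found at 1 of the 8 genes. Coordinates are those of NCBIM37 (mm9), the mouse build the authors used, and the gene models are those of GENCODE vM1, in which all 8 genes were found. *Slc40a1* (ENSMUSG00000025993) lies on the minus strand of chr1:45964915-45982439. An iron-responsive element, searched for as a C, a stem of 5 bases, the loop CAGTGN and 5 bases pairing with the stem (G with T allowed), was found in its 5′ UTR. The 5′ UTR of 33 of 19945 protein-coding genes (0.165%) held such a match, as did the 3′ UTR of 125 of 20007 (0.625%). Among the 8 genes *Slc40a1* was the one with a match. Of the other genes on the lists used below, *Alas2*, the first enzyme of erythroid haem synthesis, had 1 in its 5′ UTR and *Tfrc*, the transferrin receptor through which cells take up iron, had 4 in its 3′ UTR. Each element is written 5′ to 3′ on the strand of the gene, with the loop in capitals.
Slc40a1, 5′ UTR, chr1:45982311-45982337, minus strand: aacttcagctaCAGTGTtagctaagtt
Alas2, 5′ UTR, chrX:146982002-146982028, plus strand: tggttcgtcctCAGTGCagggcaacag
Tfrc, 3′ UTR, chr16:32631306-32631332, plus strand: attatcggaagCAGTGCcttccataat
Tfrc, 3′ UTR, chr16:32631685-32631711, plus strand: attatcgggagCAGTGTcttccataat
Tfrc, 3′ UTR, chr16:32631750-32631776, plus strand: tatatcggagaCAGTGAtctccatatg
Tfrc, 3′ UTR, chr16:32631797-32631823, plus strand: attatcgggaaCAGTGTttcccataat

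*Hmox1* (ENSMUSG00000005413) lies on the plus strand of chr8:77617490-77624495. The 9 letters GCTGAGTCA, a form of the element to which BACH1 and its competitor NRF2 bind with small MAF proteins, were searched for on both strands of the 12 kb before each gene. Before *Hmox1* they occurred 4 times, 1 time at 3833 bases and 3 times between 9577 and 9634 bases before its start. At least 1 occurrence was found before 3692 of 22366 protein-coding genes (16.5%), and at least 4 before 12 of them (0.0537%). These letters were not in the window of any of the other 7 genes. Other forms of the element were not searched for, so their absence from these genes was not shown. A match is a description of the sequence and was not tested as a site of binding. The 4 occurrences are shown with 12 bases on either side and the searched letters in capitals. The 3 distal windows overlap their neighbours by a few bases.
Hmox1, chr8:77613637-77613669, plus strand: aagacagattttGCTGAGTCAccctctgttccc
Hmox1, chr8:77607893-77607925, plus strand: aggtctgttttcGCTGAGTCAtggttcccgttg
Hmox1, chr8:77607864-77607896, plus strand: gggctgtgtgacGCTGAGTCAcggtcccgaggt
Hmox1, chr8:77607836-77607868, plus strand: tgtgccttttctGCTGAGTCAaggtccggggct

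Values are normalized counts, that is, the reads of a gene divided by 1 size factor per library; they are not divided by gene length. Between 7815326 and 18387599 reads were counted per library, and 3 reads corresponded to 1.88 to 4.50 normalized counts. Animals of a group were separate animals, so the spread within a group holds both biological and technical variation. In whole spleen, fewer cells of a type and less RNA per cell cannot be told apart. The spleen gene *Tlx1* was present in every library, with a mean of 746 in mice and 853 in NM-Rs. The other 3 genes fixed as defining the spleen were present but lower in NM-Rs, *Ptprc* with means of 21364 and 5511, *Cd74* with 75399 and 12808, and *Nkx2-3* with 327 and 218. The summed level of 10 macrophage markers ranged from 51529 to 63288 in mice, 61538 to 90075 in ssNM-Rs and 67914 to 80370 in lsNM-Rs. Of these markers 4 were higher, 4 lower and 2 not called in NM-Rs, and *Adgre1*, which encodes F4/80, averaged 2638 in mice and 74.5 in NM-Rs. The sum of 10 erythroid markers ranged from 23713 to 67692 in mice and from 149244 to 226431 in NM-Rs, and all 10 genes were higher in NM-Rs. The sum of 6 granulocyte markers was 7591 to 9849 in mice and 24693 to 42846 in NM-Rs, with 5 genes higher and 1 lower. The sum of 6 B cell markers was 44941 to 46611 in mice and 2043 to 5236 in NM-Rs, and all 6 genes were lower. Among the mice, mouse 1 had the lowest erythroid sum (23713, against 54424 and 67692) and the highest macrophage sum, and it held the highest of the 3 mouse values for 6 of the 8 genes. Their part in the differences between species below was not tested.

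In mice the 8 genes spanned a wide range of abundance. Only within the mouse can their levels be put in order, because lengths of the NM-R gene models were not used here. Per kilobase of exon, *Hmox1* stood highest at 5065 ± 482 normalized counts (SD, n = 3), followed by *Slc40a1* at 3503 ± 589. *Slc11a1* followed at 529 ± 82.9. *Aco1* (177.5 ± 6.997), *Bach1* (167 ± 8.84), *Furin* (138 ± 10.7) and *Bmp6* (91.2 ± 19.8) lay close together, and *Hpx* was lowest at 6.63 ± 1.88. Every pair of neighbours in this order was separated in the 3 mice except *Aco1* and *Bach1*, whose ranges overlapped. The length used was the union of the exons of all transcripts of a gene. For *Furin*, with 5 protein-coding transcripts, it was 9178 bases. The order of the genes that lay close together depends on this choice of length, and no other length was used.

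Between species, 5 of the 8 genes passed the threshold of an adjusted p under 0.05 in limma: *Bach1*, *Slc40a1*, *Aco1* and *Furin* were higher and *Bmp6* was lower in NM-Rs, whereas *Hmox1*, *Hpx* and *Slc11a1* did not pass. Such calls were common in this comparison. Of all 12946 genes 78.5% passed, 39.7% higher and 38.8% lower in NM-Rs, so that 5 of 8 is no more than the share of all genes. When single spleens were left out, 3 to 5 of the 8 genes were called higher, with *Slc40a1* lost without mouse 3 and *Hpx* gained without ssNM-R 3, and 1 to 2 lower, with *Hmox1* gained without lsNM-R 5. Without mouse 1, or without ssNM-R 6, the counts were 4 and 1. For 4 of the 8 genes, *Bach1*, *Aco1*, *Furin* and *Bmp6*, the values of the 6 NM-Rs did not overlap those of the 3 mice, beside 72.6% of all genes. The median log2 fold change over all genes was 0.01 and the median of its absolute value was 1.10. *Bmp6*, *Furin*, *Aco1* and *Hpx* exceeded the latter, *Bach1* was equal to it at 2 decimals, and *Slc40a1*, *Hmox1* and *Slc11a1* lay below it.

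**Figure D1:**
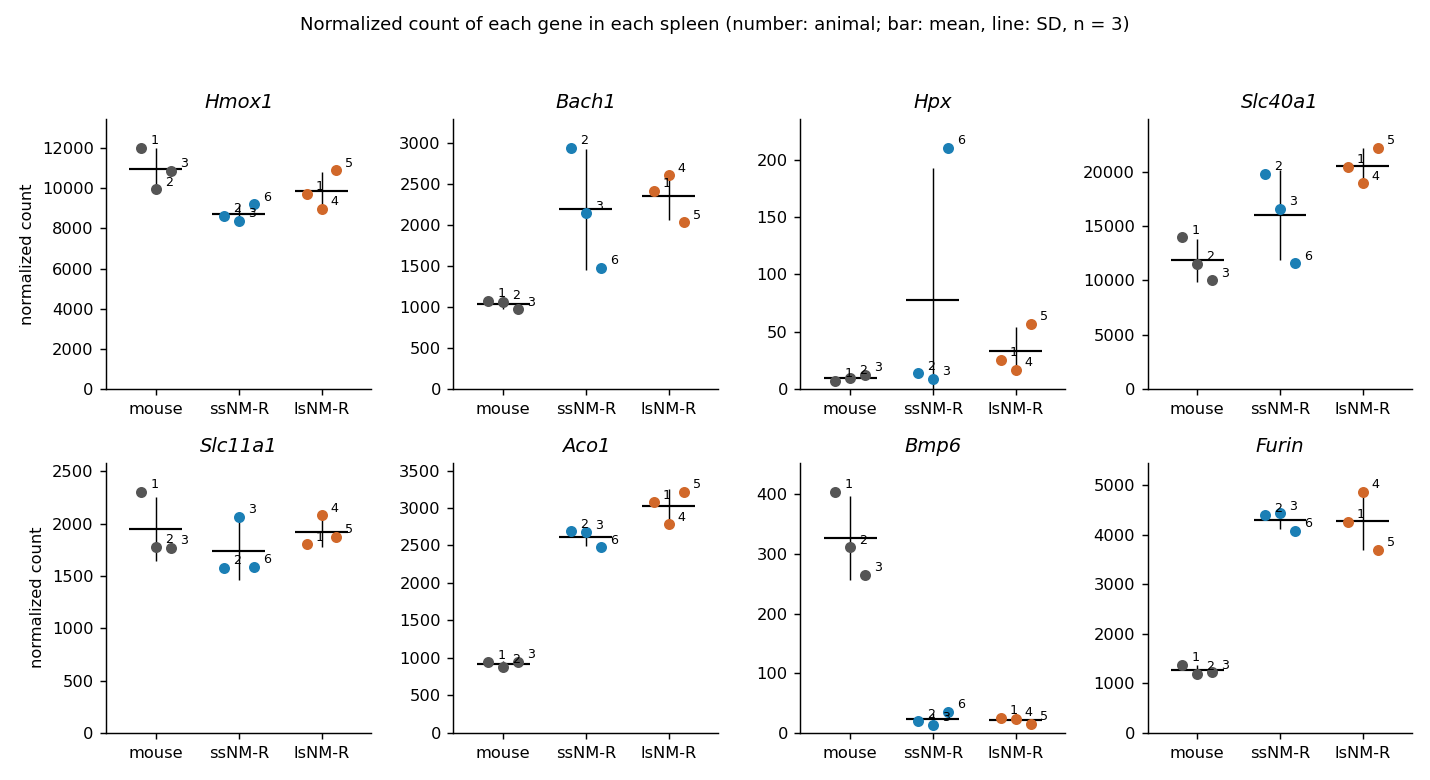
Normalized counts (vertical axes, each from 0) of the 8 genes in the spleens of 3 mice, 3 ssNM-Rs and 3 lsNM-Rs. Each point is 1 animal with its number, horizontal bars are group means and vertical lines are SDs. *Aco1* and *Furin* stood above all mice and *Bmp6* below all mice in every NM-R, while 1 ssNM-R set the height of the *Hpx* axis.

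*Hmox1*, which encodes the haem-degrading enzyme, was the most abundant of the 8 transcripts per length in mice. Its normalized counts were 12021, 9943 and 10874 in mice 1 to 3. In ssNM-Rs 2, 3 and 6 it was at 8644, 8373 and 9211, and in lsNM-Rs 1, 4 and 5 at 9723, 8979 and 10895. Thus 5 of the 6 NM-Rs lay below the lowest mouse and lsNM-R 5 lay within the mouse range. The NM-R mean was 0.850 of that in mice (log2 fold change -0.24, SE 0.11, limma adjusted p = 0.0641), with a 95% confidence interval of 0.721 to 1.00 for the fold. Against mice the ssNM-Rs alone passed (log2 fold change -0.32, limma adjusted p = 0.0355), but not when mouse 1, mouse 3, ssNM-R 2 or ssNM-R 3 was left out (limma adjusted p of 0.0704 to 0.102). The lsNM-Rs did not pass (-0.15, limma adjusted p = 0.287).

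*Bach1* encodes the haem-sensing repressor of *Hmox1*. Mice had 1073, 1057 and 971 normalized counts, ssNM-Rs 2937, 2141 and 1478, and lsNM-Rs 2414, 2599 and 2030. Every NM-R was above every mouse, with ssNM-R 6 nearest to the mice. The mean was 2.19 times that of mice (log2 fold change 1.10, SE 0.18, limma adjusted p = 3.03e-04). Both cohorts passed separately, with log2 fold changes of 1.03 in ssNM-Rs and 1.18 in lsNM-Rs (limma adjusted p = 0.00140 and 5.87e-04). Within a spleen, *Bach1* counts amounted to 0.0949 ± 0.00981 of *Hmox1* counts in mice and to 0.247 ± 0.0658 in NM-Rs (SD, n = 3 and 6), and these ratios do not depend on how libraries were scaled.

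*Hpx* encodes haemopexin, a plasma protein made chiefly by hepatocytes that carries free haem to the liver. It was scarce in most spleens, at 7.02, 9.78 and 12.6 in mice, which correspond to 7, 9 and 12 reads. The ssNM-Rs had 13.7, 9.01 and 210.4 and the lsNM-Rs 25.4, 16.9 and 57.1. ssNM-R 6 therefore stood far above the others, and lsNM-R 5 came next. The difference between species did not pass (log2 fold change 1.55, SE 0.85, limma adjusted p = 0.120), and without ssNM-R 6 it was 0.86. Without ssNM-R 6 the mean of the other 5 NM-Rs was 24.4 ± 19.2 (SD). The count models edgeR and DESeq2 on the recovered reads called it (log2 fold changes 2.45 and 2.38, adjusted p = 0.0432 and 0.00683), and also called it in ssNM-Rs against mice (3.09 and 3.00, adjusted p = 0.0220 and 0.00289).

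The 2 spleens highest in *Hpx* were also the highest in the sum of the liver genes. The summed level of 9 liver genes was 3108 in ssNM-R 6 and 1044 in lsNM-R 5, and 209 to 417 in the other 4 NM-Rs. In mice it was 163, 351 and 224. *Alb*, which encodes albumin and was the largest term of the sum in ssNM-R 6, was at 2173 in ssNM-R 6 and 694 in lsNM-R 5, compared with 60.2 to 209 in the other NM-Rs and 95.3 to 223 in mice. Of the 9 genes 3 were higher and 2 lower in NM-Rs and 4 were not called, and none was at 0 in all NM-Rs. Single liver genes did not all follow this order. *Cyp2e1* was at 0 in ssNM-R 6, *Apoa1* was higher in lsNM-R 1 (107) than in lsNM-R 5 (44.5), and *Serpinc1* was higher in ssNM-R 2 (80.7) than in lsNM-R 5 (57.7). ssNM-R 3, the NM-R lowest in *Hpx*, had a liver sum of 417. The part of these genes in the *Hpx* values was not tested.

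**Figure D2:**
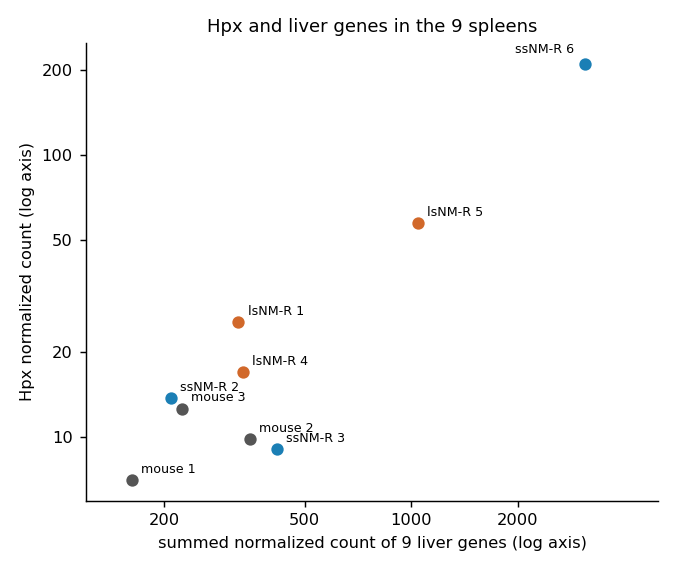
*Hpx* (vertical axis, normalized counts, log axis) against the summed normalized count of 9 liver genes (horizontal axis, log axis), 1 point per spleen, labelled by animal. ssNM-R 6 (210.4 and 3108) and lsNM-R 5 (57.1 and 1044) were highest on both axes, and the other 7 spleens formed a group at low values.

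*Slc40a1*, the ferroportin gene whose 5′ UTR element is shown above, was at 13965, 11539 and 10016 in mice. It was at 19805, 16556 and 11570 in ssNM-Rs and at 20473, 18937 and 22204 in lsNM-Rs. Of the NM-Rs 5 of 6 were above all mice, while ssNM-R 6 lay within the mouse range. The mean in NM-Rs was 1.54 times that of mice (log2 fold change 0.61, SE 0.18, limma adjusted p = 0.0105). The call was lost when mouse 3, the lowest mouse, was left out (0.49, limma adjusted p = 0.0597). The lsNM-Rs passed against mice (0.80, limma adjusted p = 0.00545) and the ssNM-Rs did not (0.41, limma adjusted p = 0.0968). With ssNM-R 6 left out the ssNM-Rs also passed (0.63, limma adjusted p = 0.0105). They also passed at equal upper quartiles (0.51, limma adjusted p = 0.0439) and with DESeq2 (0.43, adjusted p = 0.0488). With the replicate block the log2 fold change was 0.75 in ssNM-Rs and 0.55 in lsNM-Rs. Those values rested on ssNM-Rs 2 and 3 with mice 2 and 3, and on lsNM-R 1 with mouse 1 alone.

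The exporter was set against the haem-degrading enzyme within each spleen. *Slc40a1* counts were 1.16, 1.16 and 0.921 times the *Hmox1* counts in the mice. The ratios were 2.29, 1.98 and 1.26 in ssNM-Rs and 2.11, 2.11 and 2.04 in lsNM-Rs. They averaged 1.08 ± 0.139 in mice and 1.96 ± 0.362 in NM-Rs (SD, n = 3 and 6), and the lowest NM-R, ssNM-R 6, was still above the highest mouse. These counts are not per length, so a ratio compares spleens and not the 2 genes, and across species it also carries any difference in gene models.

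*Slc11a1* encodes NRAMP1, which moves iron and other metals out of the phagosome of macrophages. It was at 2308, 1782 and 1772 in mice, 1581, 2066 and 1586 in ssNM-Rs, and 1802, 2080 and 1874 in lsNM-Rs. The species overlapped, with 4 of 6 NM-Rs inside the mouse range and 2 below it. The log2 fold change was -0.09 (SE 0.12, limma adjusted p = 0.514), with an interval for the fold that reached from 0.775 to 1.14, and its sign changed at equal upper quartiles (0.00407) and when mouse 1, the highest mouse, was left out (0.03).

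*Aco1* (iron regulatory protein 1, which is the cytosolic aconitase when it holds an iron-sulphur cluster) showed the smallest SE of the 8 genes. Mice had 939, 880 and 947, ssNM-Rs 2687, 2677 and 2477, and lsNM-Rs 3078, 2782 and 3219. All NM-Rs were far above all mice. The mean was 3.06 times that of mice (log2 fold change 1.61, SE 0.08, limma adjusted p = 5.18e-08), with mean folds of 2.83 in ssNM-Rs and 3.28 in lsNM-Rs (limma adjusted p = 2.94e-07 and 1.36e-07). *Ireb2*, which encodes the related iron regulatory protein 2, was also higher, with a mean fold of 1.97 (limma adjusted p = 8.55e-06).

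*Bmp6*, the ligand that endothelial cells send to hepatocytes to raise hepcidin, showed the largest difference of the 8 genes. Mice had 404, 311 and 265 normalized counts. The ssNM-Rs had 19.1, 13.5 and 35.4 and the lsNM-Rs 25.4, 22.6 and 15.7, which rested on 9 to 56 reads per library. No NM-R came near the lowest mouse. The mean in mice was 14.9 times that in NM-Rs (log2 fold change -3.88, SE 0.30, limma adjusted p = 1.22e-06), and the log2 fold changes of ssNM-Rs and lsNM-Rs were -3.88 and -3.89 (limma adjusted p = 4.41e-06 and 4.52e-06). The summed level of 7 endothelial markers was 13212 to 16050 in mice and 8037 to 9820 in NM-Rs. Of these markers *Pecam1*, *Stab2* and *Tie1* were lower, *Stab1* and *Emcn* higher, and *Cdh5* and *Kdr* not called. *Pecam1* averaged 0.251 and *Stab2* 0.256 of their mouse levels. *Cdh5*, a defining endothelial gene, averaged 0.959 of its mouse level (log2 fold change -0.05, limma adjusted p = 0.720). The part of the endothelial genes in the *Bmp6* difference was not tested.

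*Furin* encodes the convertase that cleaves prohepcidin and the precursors of bone morphogenetic proteins, and that releases soluble haemojuvelin. Mice had 1380, 1197 and 1225, ssNM-Rs 4398, 4433 and 4086, and lsNM-Rs 4268, 4877 and 3700. Every NM-R was above every mouse. The mean was 3.39 times that of mice (log2 fold change 1.76, SE 0.10, limma adjusted p = 1.44e-07), with log2 fold changes of 1.77 in ssNM-Rs and 1.75 in lsNM-Rs (limma adjusted p = 5.14e-07 and 5.86e-07). Ligand and convertase thus differed in opposite directions. *Bmp6* counts were 0.256 ± 0.0383 of *Furin* counts in mice and 0.00515 ± 0.00196 in NM-Rs (SD, n = 3 and 6).

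**Figure D3:**
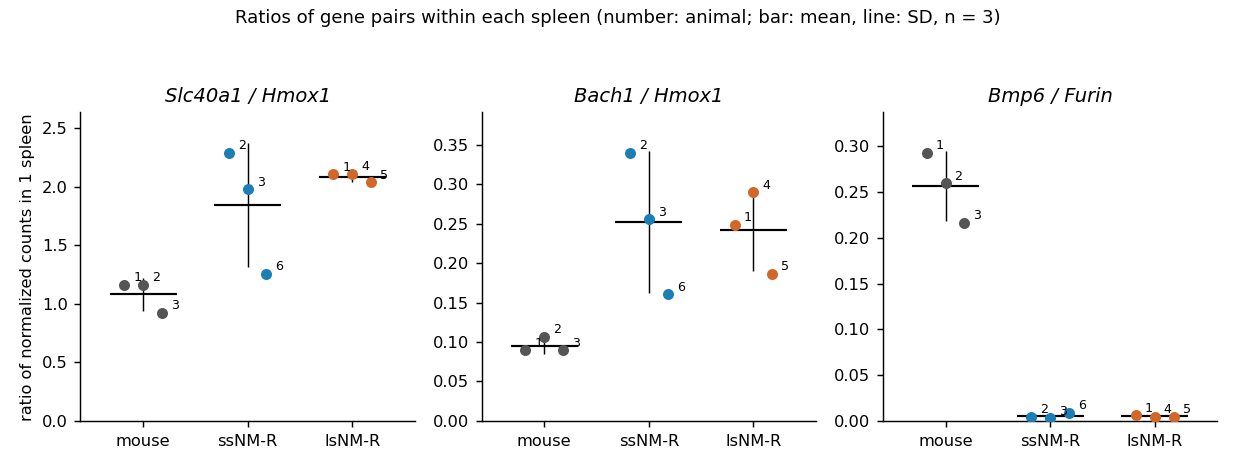
Ratios of normalized counts within each spleen (vertical axes, each from 0) for *Slc40a1* to *Hmox1*, *Bach1* to *Hmox1* and *Bmp6* to *Furin*, by group. Points are animals with their numbers, bars are means and lines SDs. The NM-R ratios lay above those of all mice in the first and second panels and below them in the last.

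Taken by cohort, 5 of the 8 genes passed against mice in ssNM-Rs (*Bach1*, *Aco1* and *Furin* higher, *Hmox1* and *Bmp6* lower), beside 75.5% of all genes. *Hmox1* was lost, and the count called lower fell to 1, when mouse 1, mouse 3, ssNM-R 2 or ssNM-R 3 was left out, at equal upper quartiles and with edgeR. In lsNM-Rs 5 of 8 passed (*Bach1*, *Slc40a1*, *Aco1* and *Furin* higher, *Bmp6* lower), beside 75% of all genes. With the replicate block the log2 fold change of *Slc40a1* was 0.55, which rested on lsNM-R 1 and mouse 1 alone. The count called higher rose from 4 to 5, with *Hpx* gained, without ssNM-R 6 or when only the groups compared entered the fit. The same 3 mice served as controls in both comparisons.

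The direct comparison addressed whether iron recycling genes differed with spleen size. None of the 8 genes passed between lsNM-Rs and ssNM-Rs in limma, beside 0% of all genes, and edgeR and DESeq2 called none of the 8 either. The lowest limma adjusted p over all genes was 0.429, edgeR called 0 genes and DESeq2 called 54. At an unadjusted p under 0.05 limma found 1 of the 8 genes, *Aco1*, and 1138 of all genes (8.79%). *Aco1* was also the single gene of the 8 whose cohorts did not overlap, beside 13.1% of all genes, with all 3 lsNM-Rs above all 3 ssNM-Rs. Its log2 fold change was 0.21 (SE 0.09, unadjusted p = 0.0428, limma adjusted p = 0.557), and the 95% confidence interval of the fold was 1.01 to 1.33. For *Slc40a1* the log2 fold change was 0.39 (limma adjusted p = 0.617) with an interval of 0.952 to 1.81 for the fold. The interval of the fold was 0.931 to 1.36 for *Hmox1*, 0.800 to 1.54 for *Bach1*, 0.887 to 1.38 for *Slc11a1* and 0.826 to 1.18 for *Furin*. *Bmp6* (0.577 to 1.71) and *Hpx* (0.209 to 4.41) had the widest, so that a change of these sizes between cohorts was not detectable here. The sum of 6 granulocyte markers was 24693 to 32706 in ssNM-Rs and 33554 to 42846 in lsNM-Rs, but none of the 6 passed between the cohorts in limma, 4 having an unadjusted p under 0.05. *Mpo* (mean 4384 in ssNM-Rs and 3567 in lsNM-Rs) and *Mmp9* (2355 and 1326) differed in the other direction from the sum, whose largest terms were *S100a9* and *Ltf*. Their part in the *Aco1* values was not tested.

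**Figure D4:**
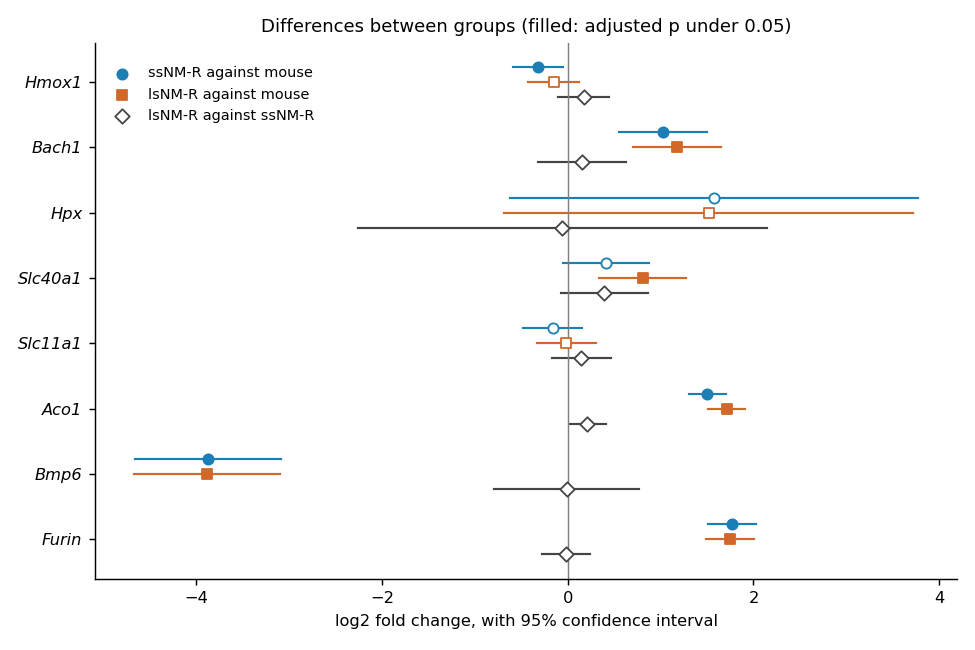
Log2 fold changes (horizontal axis) with 95% confidence intervals for the 8 genes in 3 comparisons, each cohort against mice and lsNM-R against ssNM-R. Filled symbols passed an adjusted p of 0.05. All intervals of lsNM-R against ssNM-R included 0 except that of *Aco1*, and none of these comparisons passed after adjustment.

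The 53 other genes of 5 lists around these members were read in the same fit: 21 were higher in NM-Rs, 19 were lower and 13 were not called, with a median log2 fold change of -0.07. These are 39.6% higher and 35.8% lower, beside 39.7% and 38.8% of all genes. Between the cohorts none of the 53 passed in limma, 8 (15.1%) had an unadjusted p under 0.05, beside 8.79% of all genes, and 8 (15.1%) did not overlap, beside 13.1% of all genes.

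In the haem list, 11 genes were analysed and 6 were higher, 2 lower and 3 not called, with a median log2 fold change of 1.09. *Blvrb*, a biliverdin reductase abundant in erythroid cells, rose from a mean of 3575 in mice to 16521 in NM-Rs (2.24 on the log2 scale, limma adjusted p = 1.09e-05). *Hp* encodes haptoglobin, the carrier of free haemoglobin, and rose from 425 to 2030 (2.00, limma adjusted p = 0.00294). Its highest value, 4377, was that of ssNM-R 6, the animal highest in *Hpx* and the liver sum. In lsNM-R 5, next in both, *Hp* was at 1515. This was below lsNM-R 1 (2843) and lsNM-R 4 (1559) and above ssNM-R 2 (706) and ssNM-R 3 (1180). *Cd163*, the macrophage receptor that takes up haptoglobin with haemoglobin, was lower (1532 against 298, -3.29, limma adjusted p = 0.00398) and varied widely among NM-Rs, from 13.7 in ssNM-R 2 to 977 in lsNM-R 1. *Nfe2l2*, which encodes NRF2, the activator that competes with BACH1, was lower (1394 against 1039, -0.43, limma adjusted p = 0.00813), but its values overlapped between species. Against mice both genes passed in ssNM-Rs (-4.52 and -0.60, limma adjusted p = 0.00148 and 0.00307). Neither passed in lsNM-Rs (-2.06 and -0.27, limma adjusted p = 0.0708 and 0.112).

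Of the list of iron uptake, storage and export, 16 genes were analysed and 9 were higher, 5 lower and 2 not called (median log2 fold change 0.51). *Cybrd1*, the ferric reductase also called duodenal cytochrome b, rose from 123 in mice to 2412 in NM-Rs (4.26, limma adjusted p = 2.49e-08). *Steap3*, the endosomal ferrireductase of erythroid cells, rose from 463 to 4301 (3.28, limma adjusted p = 6.87e-07). *Tfrc*, whose 3′ UTR elements are shown above, was at 2089, 5252 and 7013 in mice and at 13222 to 31732 in NM-Rs, and mouse 1 was the lowest both here and in the erythroid sum. *Steap2*, a metalloreductase of the same family as *Steap3*, was lower (40.2 against 5.2, -3.06, limma adjusted p = 6.41e-04), with scarce NM-R values of 0 to 9.89. *Steap4*, a further member, was higher (88.3 against 853, 3.18, limma adjusted p = 2.23e-07). Also lower in NM-Rs were *Slc39a8*, a zinc and iron importer (216 against 84.4, -1.43, limma adjusted p = 0.00260), and *Mon1a*, a vesicle trafficking factor (314 against 163, -0.95, limma adjusted p = 1.19e-04).

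In the list of iron regulatory proteins and their iron-sulphur supply, 11 genes were analysed and 4 were higher, 3 lower and 4 not called, with a median of -0.11. *Ciao1*, of the cytosolic iron-sulphur assembly, was higher (657 against 1865, 1.51, limma adjusted p = 2.05e-07). *Cisd2* was lower (967 against 294, -1.72, limma adjusted p = 1.17e-07). *Nfs1*, the mitochondrial cysteine desulphurase, was lower (682 against 521, -0.38, limma adjusted p = 0.0131), but did not pass without mouse 2 or without mouse 3 (limma adjusted p = 0.0695 and 0.0691).

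Of the hepcidin list 17 genes were analysed and 4 were higher, 9 lower and 4 not called, with a median of -0.67. *Hamp*, which encodes hepcidin, was not analysed here. *Tfr2*, the second transferrin receptor and a partner of the erythropoietin receptor, rose from 258 to 3256 (3.80, limma adjusted p = 1.42e-06), and *Neo1*, a binding partner of haemojuvelin, from 288 to 555 (0.95, limma adjusted p = 0.00432). The ligand *Bmp2* was lower like *Bmp6* (367 against 79.6, -2.26, limma adjusted p = 3.07e-05). *Smad5*, a transducer of the BMP signal, was lower too (1361 against 328, -2.08, limma adjusted p = 1.19e-06), with *Smad4* (-0.67, limma adjusted p = 5.01e-04) and the BMP target *Id1* (-1.16, limma adjusted p = 0.00262). Other genes of the list differed in both directions. The BMP receptor *Acvr1* was higher (149 against 242, 0.68, limma adjusted p = 0.00543), while the receptors *Bmpr2* and *Acvr2a* did not pass (0.19 and -0.27, limma adjusted p = 0.561 and 0.144). Inhibitors of the pathway were lower as well, with *Smad6* at 72.1 in mice and 36.5 in NM-Rs, *Smad7* at 515 and 426 and the scarce *Tmprss6* at 10.5 and 2.21 (limma adjusted p = 0.0227, 0.0446 and 0.0198). The values of these 3 inhibitors overlapped between species.

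Of 6 further proprotein convertases 2 were higher, 1 lower and 3 not called (median 0.02). *Pcsk1* rose from 7.95 to 154 (4.11, limma adjusted p = 2.21e-07). *Pcsk7* and *Mbtps1* did not pass (0.11 and -0.07, limma adjusted p = 0.363 and 0.419).

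**Figure D5:**
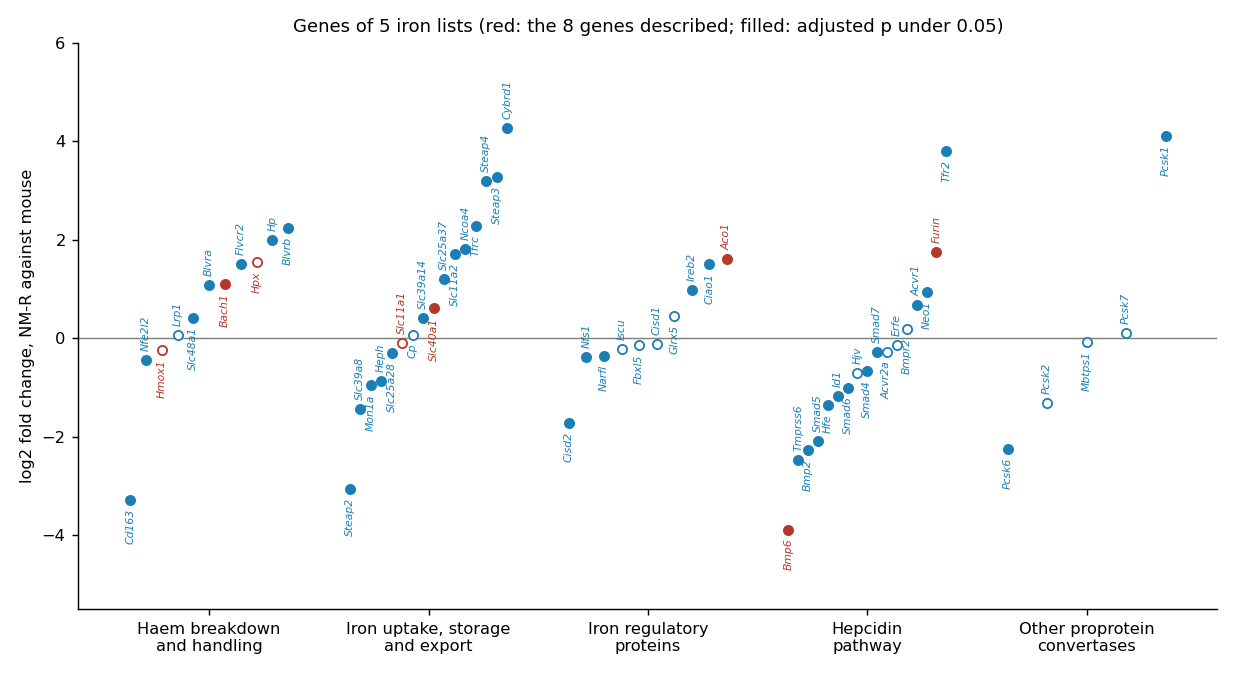
Log2 fold change of NM-R against mouse (vertical axis) for each gene of 5 lists (horizontal axis), ordered by value within a list. Red symbols are the 8 genes described and blue the other genes of the lists, 2 of which are not shown, and filled symbols passed an adjusted p of 0.05. *Bmp6* was the lowest of the hepcidin list and *Tfr2* its highest.

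The genes whose values followed each member most closely were named by Pearson's r of log2 values among 7517 genes that averaged 100 normalized counts or more (7518 for *Hpx*), as a description with no test. Over the 9 spleens, which share the species difference, these were *Gpm6b* and *Snx10* for *Hmox1* (r = 0.938 and 0.917), *Zmynd8* and *Mtr* for *Bach1* (0.993 and 0.992), and *Leng1* and *Cebpb* for *Hpx* (0.968 and 0.952). For *Slc40a1* they were *Ptar1* and *Zbtb38* (0.966 and 0.963), and for *Slc11a1* *Agtpbp1* and *Map4k3* (0.855 and 0.840). For *Aco1* they were *Glrx* and *Tpp1* (0.997 and 0.997), for *Bmp6* *Appl2* and *Adam11* (0.995 and 0.994), and for *Furin* *Xdh* and *Tsc22d1* (0.998 and 0.997). Over the 6 NM-R spleens alone the closest gene was *Cxcr4* for *Hmox1*, *Dctn6* for *Bach1*, *Samd14* for *Hpx*, *Nipal1* for *Slc40a1*, *Pgm3* for *Slc11a1*, *Kdsr* for *Aco1*, *Ank2* for *Bmp6* and *Dedd2* for *Furin*. These r ranged from 0.978 for *Hmox1* to 0.999 for *Hpx*, and were each the highest of 7517 or 7518 values over only 6 points.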

How the data were processed

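RNA was extracted from 1 spleen per animal. The authors aligned the reads with STAR 2.5.3a to mm9 or hetGla2, counted them per gene with HTSeq 0.10.0, gave NM-R genes the symbols of their mouse homologues, kept symbols above a minimum of reads, and divided each library by 1 DESeq2 size factor fitted over both species. The counting strand was not given in the sources used here, so reads of overlapping antisense genes may be included. The deposited signal is therefore a normalized count, not per length; all values (100%) were whole multiples of 1 read within a tolerance of 0.01, and reads were recovered from these steps. From the deposited values, limma 3.58.1 (R 4.3.3) was fitted to log2(normalized count + 1) of all 12946 genes in the 9 spleens, with 1 mean per group, a trended variance and 2-sided tests adjusted by Benjamini-Hochberg; the threshold was 0.05. Folds are ratios of arithmetic means, while log2 fold changes are differences of mean log2(value + 1) and understate low genes. Confidence intervals are 95%. Alternatives used pseudocounts of 0.5 and 5, a mean of at least 10, equal upper quartiles or totals, no trend, only the groups compared, edgeR 4.0.16 and DESeq2 1.42.0 on recovered reads, a replicate block, a term for depth, size factors over NM-Rs only, and each spleen left out. Replicate numbers 4, 5 and 6 each occurred in 1 library. The replicate block therefore rested on mouse 1 with lsNM-R 1 and on mice 2 and 3 with ssNM-Rs 2 and 3. No cohort call under it is given. The scripts were tested on simulated data. Genes named besides the 8 were, per list, up to 2 with the highest and 2 with the lowest log2 fold change among those that passed with a mean of at least 100 in the higher species, and the 2 closest genes per member; *Ireb2*, *Tfrc*, *Steap2*, *Steap4*, *Smad4*, *Id1*, *Acvr1*, *Acvr2a*, *Bmpr2*, *Smad6*, *Smad7*, *Tmprss6*, *Pcsk7* and *Mbtps1* and single marker genes were added after their values were seen. For 2 genes that this rule names, the results are not reported here. The members and lists were chosen with earlier results of these data known. Sequences were read from NCBIM37 with GENCODE vM1.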

Additional observations from a re-analysis of the deposited data

Results flagged for a closer look

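*Hpx* in ssNM-R 6, at 210.4 normalized counts, stood apart from the other 5 NM-R spleens: its gap to the next animal was 0.761 of the range of the 6, above the limit of 0.625 for 6 values. The 8 genes were tested in this way, each over the 6 NM-Rs. Chance marks about 1 group in 20 where values are normally distributed, which was not checked. The gap was taken on normalized counts and not on the log2 scale of the fits, where high values lie closer together. The flag therefore applies to the unlogged counts only. The other 5 NM-Rs had a median of 16.9. In the same library the 9 liver genes summed to 3108 and *Alb* was at 2173. Their part in this value was not tested.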

How the results depend on the processing

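Over 58 results and 1180 alternative values none of the called differences changed direction. *Bach1*, *Aco1*, *Furin* and *Bmp6* passed between NM-R and mouse under every alternative run. The genes called lower between NM-R and mouse rose from 1 to 2, with *Hmox1* added, at equal totals and with DESeq2 (*Hmox1* adjusted p = 0.0336 and 0.0272), and ranged from 1 to 2 when single spleens were left out; without lsNM-R 5 *Hmox1* also passed (limma adjusted p = 0.0391). For ssNM-Rs against mice the count called higher in ssNM-Rs rose from 3 to 5 with DESeq2, which added *Hpx* and *Slc40a1*. It rose to 4 with edgeR (*Hpx* added) and at equal upper quartiles or without ssNM-R 6 (*Slc40a1* added). The count called lower fell from 2 to 1, with *Hmox1* lost, at equal upper quartiles and with edgeR, and ranged from 1 to 2 when single spleens were left out. Equal upper quartiles moved the median difference between species, over the whole table, from 0.01 to 0.10 on the log2 scale. Replicate numbers shared by mice and NM-Rs did not pair them (r of deviations 0.0326, -0.00346 and -0.00998 over 11483 genes). With the replicate block the log2 fold change of *Slc40a1* was 0.55 in lsNM-Rs and 0.75 in ssNM-Rs. Both rested only on the animals with shared numbers, in lsNM-Rs on animal 1 alone. *Hpx* passed in lsNM-Rs when only the groups compared entered the fit (limma adjusted p = 0.0169) or without ssNM-R 6 (limma adjusted p = 0.0127), where the pooled spread no longer holds that spleen, and between species without ssNM-R 3 (1.96, limma adjusted p = 0.0465). Other causes were not tested. Equal totals without mitochondrial genes, an alternative chosen after seeing the data, changed no call of the 8 genes. Signs of uncalled differences changed for *Slc11a1* against mice and, between the cohorts, for each of the 8 genes except *Aco1*, under 1 to 5 alternatives each. Depth limited *Hpx* in mice (7 to 12 reads) and *Bmp6* in NM-Rs (9 to 56 reads).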
